A study of Mus musculus with 2 samples.

Results

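The genes examined here are 39 genes of autophagy and of aggresome handling, chosen by symbol from a list of initiation, conjugation, receptor and ubiquitin-handling factors, and all 39 were found among the 23238 distinct gene symbols of the deposited tables. RNA came from naïve CD4+ T cells purified from the spleens of female wild-type C57BL/6 mice 7 to 10 weeks old. The cells were activated through CD3 and CD28 and cultured for 1 day under Treg-inducing conditions, with TGF-β1 (5 ng/ml), IL-2 (1 ng/ml) and blocking antibodies against IFN-γ and IL-4, all of which both cultures received. The control culture received the solvent DMSO, and the other received 10 μM Tubastatin A (TSA), an inhibitor known as selective for HDAC6. There was 1 library per condition, so no difference has a replicate check, and what TSA did cannot be told apart from how the 2 cultures, or their library preparations, happened to differ.

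In macroautophagy, a double membrane grows around a part of the cytoplasm, closes, and delivers it to the lysosome. A kinase complex around ULK1 starts the process, a lipid kinase complex around VPS34 marks the site, ATG2 and ATG9 supply membrane, and 2 ubiquitin-like conjugation systems attach proteins of the ATG8 family (LC3 and GABARAP) to it, where cargo receptors such as p62 dock. HDAC6 binds ubiquitinated protein and the dynein motor, and is known for carrying misfolded protein along microtubules to the aggresome, an inclusion that autophagy can clear. The comparison asks how the transcripts of this machinery differed when the HDAC6 inhibitor was present.

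The libraries held 10845868 (control) and 10432698 (TSA) reads on genes, of which the 39 genes took 0.196% and 0.219%. Reads are the whole reads recovered from the deposited log2 values, and levels are given as reads or as normalized read counts, the authors' scaled values taken out of the log2 scale. In parentheses after the reads of a gene stand its fold and a 95% interval. The fold is 2 to the power of the log2 change (the TSA value less the control value), and so includes the 1 count added to each value. The interval is an exact Clopper-Pearson interval of the ratio of TSA to control, from the reads of the 2 libraries. It covers counting error only and compares the libraries, not the conditions. The 8 T cell markers, all detected, summed to 1664 CPM (reads per 1000000 reads of the library) for the control and 1940 with TSA, and went both ways. The intervals of Cd2, Cd247, Cd3g and Cd3d lay above no change, those of Cd3e and Cd5 below it, and those of Cd4 and Lat held it. The markers of other cells were low, with a summed CPM of 1.38 and 1.82 for 6 B cell genes, 0.277 and 0.767 for 4 NK cell genes, 3.97 and 5.56 for 6 red cell genes, and 7.38 and 8.34 for both CD8 genes. The 10 myeloid genes summed to a CPM of 82.6 and 85.0, of which a single gene, Cst3, gave 742 of 896 reads and 757 of 887 reads. Of the 3 red cell genes with enough reads, Hbb-bs was higher with TSA at 4 and 17 reads (3.57-fold, 1.37 to 17.2), while Hba-a1 had 28 in both libraries. The B cell gene Cd79b had 11 and 4 reads, with an interval that held no change. Klrb1c and Hba-a2 had no reads in either library, and Ms4a1 had 0 and 5. The part of these cells in the results was not tested.

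Of the 39 genes, 38 had at least 10 reads in at least 1 library and were compared. The interval lay above no change for 17 and below it for 6, and it held no change for the other 15. Over all 12164 genes compared in the same way, the interval lay above no change for 28.1% and below it for 28.0%, against 44.7% and 15.8% of the 38. The change passed 2-fold upwards for 4 genes (Map1lc3a, Atg4c, Atg9a and Calcoco1), which is 10.5% of the 38 beside 11.5% of all genes, and downwards for none, beside 3.15% of all genes. The median log2 change of the 38 genes was 0.11 and that of all genes 0.015, and 25 of the 38 were higher in the TSA library at any size, beside 51.3% of all genes. Scaling by total reads instead turned the split of 17 above and 6 below into 20 and 3, and moved the shares of all genes to 33.7% above and 21.6% below. At the 99% level the intervals of Ulk1, Pik3r4, Atg14, Uvrag, Atg2a, Ubqln1, Atg13, Atg3 and Atg7 held no change, which left 11 above and 3 below, beside 22.2% and 22.4% of all genes. Of the 34 genes with a mean normalized count of 50 or more, 2 (5.88%) were past 2-fold upwards, beside 2.96% of all 9399 such genes. The interval lay above no change for 15 of the 34 (44.1%, beside 24.5% of all) and below it for 6 (17.6%, beside 33.6%), and 22 (64.7%, beside 45.3%) were higher at any size. In bulk RNA, fewer cells of a kind and less RNA per cell cannot be told apart.

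**Figure D1:**
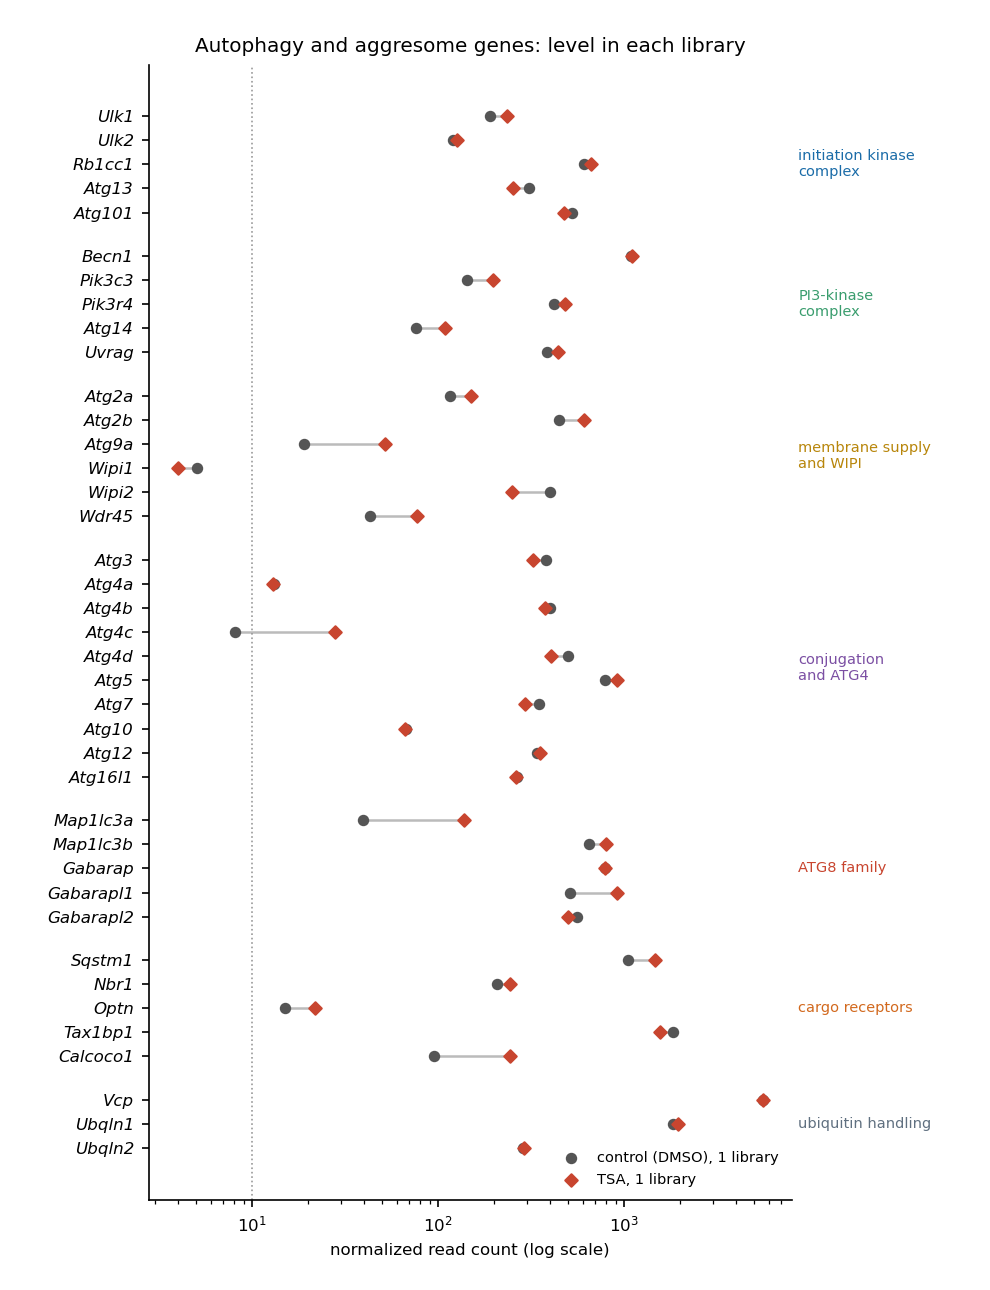
Normalized read count (x axis, log scale) of each of the 39 genes in the control library (grey circles) and the TSA library (red diamonds), with the genes grouped by role and a dotted line at 10 normalized counts. The points of Map1lc3a, Atg9a, Atg4c and Calcoco1 lie far apart, while those of Vcp, Becn1 and Gabarap coincide.

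The levels covered a wide range. Vcp, the ATPase that pulls ubiquitinated proteins out of complexes, was the most abundant with 5536 and 5583 reads, followed by Ubqln1 and Tax1bp1. At the other end, Wipi1 had 5 and 4 reads, too few to compare, and Atg4a had 13 in each library. A library of this kind gives about 1 read for each captured transcript end, so that reads do not grow with transcript length, though capture can differ between genes.

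**Figure D2:**
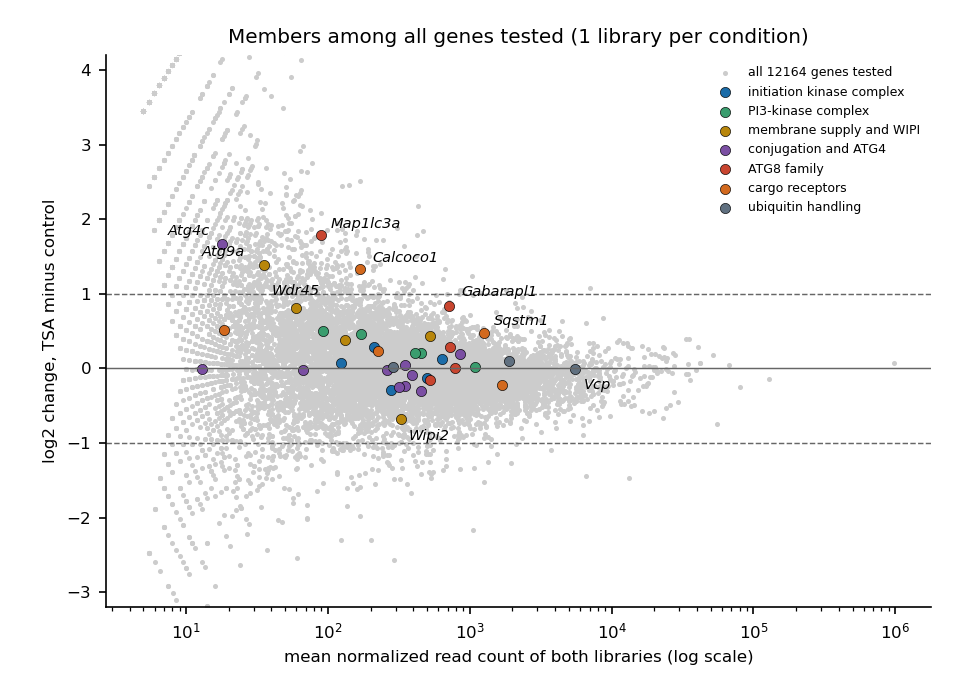
Log2 change (TSA minus control, y axis) against the mean normalized read count of both libraries (x axis, log scale), for all genes compared (grey) and for the 38 genes compared here (coloured by role), with dashed lines at 2-fold. The 4 genes past 2-fold lie at mean counts of 169 and below, where the grey cloud is wide, while at higher counts Gabarapl1 lies above and Wipi2 below most genes of their level. The y axis leaves out 107 grey points.

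The RefSeq start-site windows of 6 of the genes are shown because 3 of them (Calcoco1, Atg9a and Gabarapl1) are among the genes with the largest changes and the others (Atg3, Atg5 and Atg14) hold an E-box core. The E-box core CACGTG is the centre of the element bound by TFEB, TFE3 and MITF, transcription factors known for driving lysosomal and autophagy genes. Each window runs from 250 bases before to 50 bases after the RefSeq start of the gene on GRCm38, is written 5′ to 3′ on the strand of the gene, and has the E-box core in capitals. RefSeq windows were found for 32 of the 39 genes, 36 windows in all, and not for Map1lc3a. The windows are chr15:102722129-102722428 (minus strand) for Calcoco1, chr1:75191961-75192260 (minus) for Atg9a, chr6:129532942-129533241 (plus) for Gabarapl1, chr16:45158579-45158878 (plus) for Atg3, chr10:44268089-44268388 (plus) for Atg5 and chr14:47568385-47568684 (minus) for Atg14.
Calcoco1: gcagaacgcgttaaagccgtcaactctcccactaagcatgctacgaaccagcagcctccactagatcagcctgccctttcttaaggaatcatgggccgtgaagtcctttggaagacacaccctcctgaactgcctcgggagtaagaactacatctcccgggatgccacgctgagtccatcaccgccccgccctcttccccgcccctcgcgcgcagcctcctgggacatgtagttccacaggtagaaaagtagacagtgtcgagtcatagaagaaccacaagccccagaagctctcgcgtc
Atg9a: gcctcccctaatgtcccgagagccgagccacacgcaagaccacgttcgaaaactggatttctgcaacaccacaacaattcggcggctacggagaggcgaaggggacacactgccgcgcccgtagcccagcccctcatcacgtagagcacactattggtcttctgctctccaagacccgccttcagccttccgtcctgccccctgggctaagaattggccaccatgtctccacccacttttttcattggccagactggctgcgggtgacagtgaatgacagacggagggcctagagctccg
Gabarapl1: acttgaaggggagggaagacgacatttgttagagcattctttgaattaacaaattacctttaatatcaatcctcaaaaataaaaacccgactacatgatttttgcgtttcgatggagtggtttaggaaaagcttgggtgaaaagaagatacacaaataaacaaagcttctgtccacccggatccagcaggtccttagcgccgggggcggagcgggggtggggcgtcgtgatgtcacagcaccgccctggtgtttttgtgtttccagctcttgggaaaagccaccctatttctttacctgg
Atg3: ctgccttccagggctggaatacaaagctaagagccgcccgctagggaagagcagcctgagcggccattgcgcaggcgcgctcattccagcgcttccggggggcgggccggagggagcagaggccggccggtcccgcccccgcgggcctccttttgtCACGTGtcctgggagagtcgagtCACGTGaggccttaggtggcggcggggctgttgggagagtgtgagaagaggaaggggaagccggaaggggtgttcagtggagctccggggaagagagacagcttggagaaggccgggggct
Atg5: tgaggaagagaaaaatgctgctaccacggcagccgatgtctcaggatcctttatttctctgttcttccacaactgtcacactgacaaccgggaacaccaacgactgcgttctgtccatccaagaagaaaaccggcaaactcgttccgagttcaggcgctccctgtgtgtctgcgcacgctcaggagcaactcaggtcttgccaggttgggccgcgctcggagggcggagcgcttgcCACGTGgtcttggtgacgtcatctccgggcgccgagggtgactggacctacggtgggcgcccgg
Atg14: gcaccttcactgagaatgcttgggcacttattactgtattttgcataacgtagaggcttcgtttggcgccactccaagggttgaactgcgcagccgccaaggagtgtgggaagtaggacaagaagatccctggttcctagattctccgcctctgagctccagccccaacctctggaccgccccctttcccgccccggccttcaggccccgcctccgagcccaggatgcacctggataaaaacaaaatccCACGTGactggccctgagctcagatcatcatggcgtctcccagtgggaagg

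The E-box core, searched on both strands (it reads the same on each), was in 4 of the 36 windows (11.1%) and in 7.15% of all 32851 windows. It began 94 and 71 bases before the start site of Atg3, 14 before that of Atg5, 132 before that of Atg7 and 1 before that of Atg14. The start site of the Atg7 window (chr6:114670846-114671145, not printed) lies 27999 bases inside the gene as GENCODE M21 places it. That of the Atg14 window lies 2215 bases inside. These distances are from the outermost start of each gene. Whether that annotation also has a transcript start at either site was not examined. Among these 4 genes, Atg5 and Atg14 were higher in the TSA library and Atg3 and Atg7 lower, so the genes that hold the letters went both ways. The core of the antioxidant response element bound by NRF2 (TGACNNNGC, both strands) was in 5 windows (13.9%, beside 12.4% of all windows), those of Atg13, Map1lc3b, Tax1bp1, Ulk2 and Vcp. The forkhead core GTAAACA was in none of the 36 windows and in 3.65% of all. The 36 windows were richer in G and C, with a median of 59.7% beside 52.7% of all windows. The part of this difference in the motif shares was not tested. None of the 3 motifs was in the windows of Calcoco1, Atg9a and Gabarapl1. The motifs were chosen after the changes were known, and a match is a string of letters, not a site shown to be bound.

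**Figure D3:**
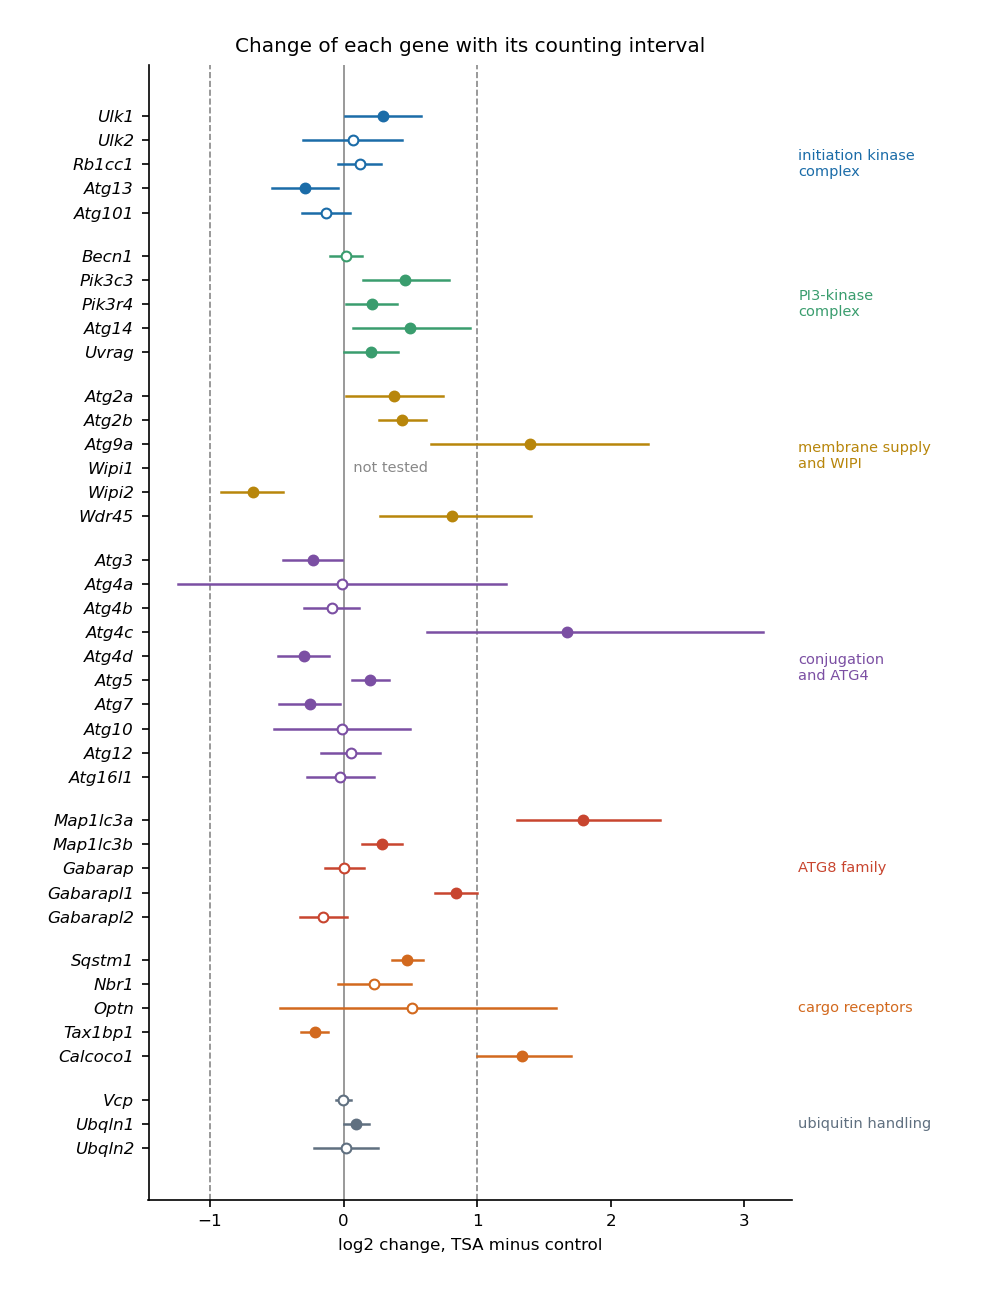
Log2 change of each gene (TSA minus control, points) with its exact 95% counting interval (lines), grouped and coloured by role. Filled points have an interval that leaves out no change, the solid line marks no change and the dashed lines 2-fold. In the PI3-kinase complex every point lies right of the solid line, and in the conjugation group the points lie on both sides.

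The initiation kinase complex was nearly level. Ulk1, the kinase that receives signals from mTORC1 and AMPK, had 190 control and 235 TSA reads (1.22-fold, 1.007 to 1.49). Atg13, the subunit that links the kinase to its scaffold, had 306 and 253 reads (0.82-fold, 0.690 to 0.9702). Of the other 3 genes, Ulk2 had 120 and 127 reads, the scaffold Rb1cc1 (FIP200) 605 and 665, and Atg101 519 and 478, and their intervals held no change. Summed over the 5 genes, the TSA library held 1.0004 times the control level (0.936 to 1.07). Scaled by total reads, the interval of Atg13 held no change (0.725 to 1.02) and that of Rb1cc1 left it out (1.02 to 1.28).

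In the lipid kinase complex, 4 of 5 intervals lay above no change and none below, beside 28.1% and 28.0% of all genes. Pik3c3, the catalytic subunit VPS34, had 142 and 198 reads (1.38-fold, 1.11 to 1.73). Atg14, which directs the complex to autophagosome formation, had 76 and 109 reads (1.41-fold, 1.0499 to 1.93). Pik3r4, the regulatory subunit VPS15, had 415 and 485 reads (1.16-fold, 1.013 to 1.32). Uvrag, the partner of the complex on endosomes, had 382 and 444 reads (1.15-fold, 1.001 to 1.32), and was no longer above no change when the libraries were scaled by the median of ratios. Becn1, the subunit shared by both forms of the complex, was level at 1077 and 1101 reads (1.013-fold, 0.930 to 1.10). At the 99% level, Pik3c3 alone of the 4 kept an interval above no change. Summed, the 5 genes stood at 1.11 times the control level (1.04 to 1.17). The last bases of Becn1 overlap transcripts of Cntd1 on the opposite strand (902 and 952 reads in the tables), and since the counting rule is not given in the sources used here, reads of these genes cannot be told apart.

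Among the genes of membrane supply, the lipid transfer proteins, the scramblase and Wdr45 were higher and Wipi2 was lower. Atg2b had 446 and 611 reads (1.36-fold, 1.199 to 1.54), and Atg2a had 115 and 151 (1.298-fold, 1.013 to 1.67). Atg9a, the scramblase that seeds the membrane, had 19 and 52 reads (2.62-fold, 1.58 to 4.85). Its last 300 bases also lie in the annotated transcript Gm29253 of the same strand, and the ends of Wdr45 and Map1lc3b overlap Gm45208 and Gm20388 on their own strand. Wdr45 (WIPI4), which binds ATG2, had 43 and 77 reads (1.76-fold, 1.21 to 2.64). Wipi2, which recruits the conjugation machinery to the membrane, had the lowest fold of the list, with 399 and 251 reads (0.624-fold, 0.530 to 0.731). It was the single gene of the list lower by more than 1.5-fold.

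The makeup of the WIPI family differed between the libraries. Wdr45b (WIPI3), the WIPI gene with the most reads and one of the further pathway genes, named after its values were seen, had 551 and 547 reads (0.983-fold, 0.872 to 1.11). Of the reads of all 4 WIPI genes, Wipi2 took 39.98% in the control library (exact binomial 95% interval 36.9 to 43.1%) and 28.6% in the TSA library (25.6 to 31.7%). Wdr45 took 4.31% (3.14 to 5.76%) and 8.76% (6.98 to 10.8%), and Wdr45b 55.2% (52.1 to 58.3%) and 62.2% (58.9 to 65.4%). Shares within a library do not depend on how the libraries are scaled. The makeup of the ATG2 pair was close in both libraries, with Atg2b at 79.5% (75.9 to 82.8%) and 80.2% (77.2 to 83.0%) of their reads.

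The conjugation genes went both ways. Atg7, the activating enzyme of both conjugation systems, was lower with 346 and 293 reads (0.839-fold, 0.715 to 0.983). Atg3, the conjugating enzyme for the ATG8 proteins, was lower with 378 and 325 reads (0.852-fold, 0.732 to 0.990006). Under scaling by total reads or by upper quartiles, the intervals of both held no change. Atg5, which forms the ligase with Atg12 and Atg16l1, was higher with 789 and 915 reads (1.15-fold, 1.04 to 1.26). The partners Atg12 (340 and 356 reads) and Atg16l1 (264 and 262) and the conjugating enzyme Atg10 (67 in both) had intervals that held no change. Summed, the 10 genes of the group stood at 0.973 times the control level (0.925 to 1.02).

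The ATG4 proteases, which trim ATG8 proteins and release them from lipid, are part of this group. Atg4d was lower with 497 and 408 reads (0.813-fold, 0.711 to 0.928). Its last bases overlap Kri1 on the opposite strand, which had 527 and 429 reads, close to those of Atg4d in each library. Since the counting rule is not given, reads of these genes cannot be told apart, and those given for Atg4d may include reads of Kri1. Atg4c had 8 and 28 reads (3.19-fold, 1.54 to 8.80), and passed the minimum of 10 reads through the TSA library alone. Atg4b (399 and 379 reads) and Atg4a (13 and 13) had intervals that held no change. A transcript named Atg4a-ps is 98.2% identical to Atg4a over 223 of its last 300 bases, so these reads could come from either. Atg4b and Atg4d together gave most ATG4 reads in both libraries, with Atg4d at 54.2% (50.9 to 57.5%) and 49.3% (45.8 to 52.7%).

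The ATG8 family had the largest summed difference of the 7 role groups, at 1.23 times the control level (1.17 to 1.2998). Map1lc3a (LC3A) had 39 control and 139 TSA reads (3.47-fold, 2.46 to 5.17), and was the single gene of the list whose whole interval lay beyond 2-fold. Gabarapl1 had 507 and 916 reads (1.79-fold, 1.60 to 1.998). Map1lc3b (LC3B), the form most used to follow autophagosomes, had 647 and 798 reads (1.22-fold, 1.10 to 1.36). Gabarap (785 and 796 reads, 1.004-fold with an interval of 0.909 to 1.11) and Gabarapl2 (553 and 503 reads, 0.901-fold with an interval of 0.797 to 1.02) had intervals that held no change. The order of the family therefore differed between the libraries. Gabarap led with 31.0% of the 2531 ATG8 reads of the control library (29.2 to 32.9%), and Gabarapl1 led with 29.1% of the 3152 reads of the TSA library (27.5 to 30.7%), beside 20.03% in the control library (18.5 to 21.6%). Gabarapl2 went from 21.85% (20.25 to 23.5%) to 15.96% (14.7 to 17.3%), and Map1lc3a from 1.54% (1.10 to 2.10%) to 4.41% (3.72 to 5.19%). The share of Map1lc3b was 25.6% and 25.3%.

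**Figure D4:**
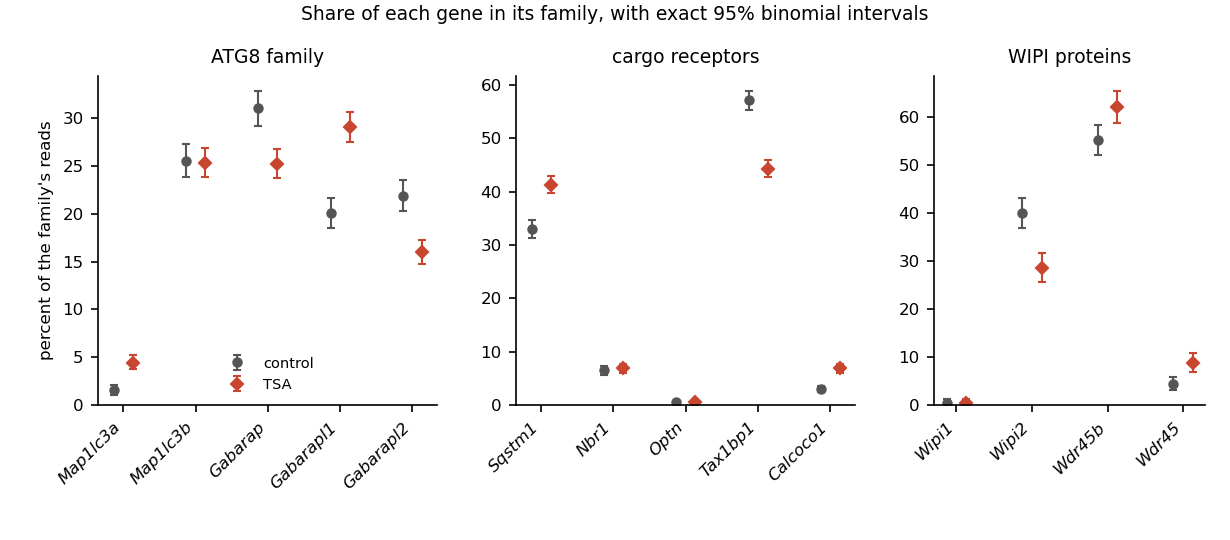
Share of each gene (y axis, percent) in the reads of its family in the control library (grey circles) and the TSA library (red diamonds), with exact 95% binomial intervals as error bars. Gabarapl1, Sqstm1 and Wdr45 hold a larger share in the TSA library and Gabarap, Tax1bp1 and Wipi2 a smaller one, with intervals that do not overlap.

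Both ATG8 genes with the largest changes and the receptor genes Calcoco1 and Sqstm1 lie on different chromosomes. On GRCm38, Map1lc3a lies on chromosome 2 from 155276297 to 155278073 and Gabarapl1 on chromosome 6 from 129533160 to 129542346, while Calcoco1 lies on chromosome 15 from 102706777 to 102722178 and Sqstm1 on chromosome 11 from 50199366 to 50210827. All 4 are protein-coding genes. None of their last 300 bases matched a transcript of another gene at 95% identity over 60 bases, except for Sqstm1, whose end overlaps Mrnip on the opposite strand (65 and 66 reads in the tables).

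Of the cargo receptors, p62 and Calcoco1 were higher and Tax1bp1 was lower. Sqstm1, which encodes p62, the receptor that bridges ubiquitinated protein and ATG8 proteins, had 1046 and 1468 reads (1.39-fold, 1.28 to 1.51). Calcoco1, a receptor for the endoplasmic reticulum and the Golgi, had 95 and 244 reads (2.53-fold, 1.999 to 3.26). Tax1bp1, the receptor with the most reads, had 1813 and 1574 (0.86-fold, 0.803 to 0.9202). Nbr1, a relative of p62, had 206 and 244 reads (1.17-fold, 0.9703 to 1.42), and Optn had 15 and 22 (1.42-fold, 0.720 to 3.01). The share of Tax1bp1 in the reads of the 5 receptors was 57.1% (55.4 to 58.8%) in the control library and 44.3% (42.7 to 46.0%) in the TSA library. That of Sqstm1 was 32.9% (31.3 to 34.6%) and 41.3% (39.7 to 43.0%), so these receptors stood closer to each other in the TSA library.

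The genes that handle ubiquitinated protein were almost level. Vcp stood at 0.999-fold (0.962 to 1.04), the narrowest interval of the list, which lay above no change under scaling by total reads (1.01 to 1.09). Ubqln1, which carries ubiquitinated protein to the proteasome, had 1819 and 1964 reads (1.07-fold, 1.003 to 1.14), and its relative Ubqln2 had 285 and 291 (1.011-fold, 0.856 to 1.19). Summed, the 3 genes stood at 1.02 times the control level (0.984 to 1.05).

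A further 89 genes of the pathway were listed to set the 39 in context, all were found in the tables (4 of them under another symbol), and 84 had enough reads. The interval lay above no change for 24 and below it for 26, while 9 lay past 2-fold upwards and 1 downwards, with a median log2 change of -0.005. These counts are close to the shares of all genes, which were 28.1% above, 28.0% below, 11.5% past 2-fold upwards and 3.15% downwards. Hdac6, the target of the inhibitor, had 146 and 166 reads (1.13-fold, 0.896 to 1.42). An inhibitor acts on the protein, so this transcript does not check the treatment.

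Of 7 transcription factors with enough reads, 4 intervals lay above no change and 1 below, beside 28.1% and 28.0% of all genes. Mitf was higher with 15 and 36 reads (2.29-fold, 1.27 to 4.67). The others are named after their values were seen. Nfe2l2, which encodes NRF2, had 404 and 504 reads (1.23-fold, 1.08 to 1.41), the forkhead factor Foxo1 had 2157 and 2430 (1.11-fold, 1.0522 to 1.18), and Zkscan3, a repressor of autophagy genes, had 173 and 228 (1.303-fold, 1.07 to 1.60). Tfe3 was lower with 337 and 286 reads (0.841-fold, 0.715 to 0.987). Tfeb (69 and 58 reads) and Foxo4 (206 and 247) had intervals that held no change. Of 20 regulators of mTORC1 and AMPK, 4 were past 2-fold upwards and 1 downwards, beside 11.5% and 3.15% of all genes. The interval lay above no change for 8 of them and below it for 5, beside 28.1% and 28.0% of all genes. Prkab2, a regulatory subunit of AMPK, had 23 and 101 reads (4.21-fold, 2.74 to 7.17), and Prkaa2, a catalytic subunit of AMPK, had 0 and 18 reads and so passed the minimum through the TSA library alone. With the control set at a floor of 3 reads, Prkaa2 was at least 5.94-fold higher, and its exact interval, which also covers the counting error of the TSA reads, began at 4.35. Prkaa1 and Prkab1, their relatives with more reads, named after their values were seen, had intervals that held no change. Prkaa1 had 397 and 405 reads (1.01-fold, 0.877 to 1.16), and Prkab1 had 215 and 224 (1.03-fold, 0.852 to 1.25). Deptor, an inhibitor of mTOR, had 54 and 127 reads (2.30-fold, 1.68 to 3.26). Of the stress-induced sestrins, Sesn1 had 60 and 125 reads (2.04-fold, 1.505 to 2.86), and Sesn3, the one with the most reads and named after its values were seen, had 410 and 697 (1.68-fold, 1.49 to 1.91). Sesn2 was lower on few reads, 19 and 3, a read ratio of 0.156 (0.0296 to 0.531). Mtor itself, also named after its values were seen, was lower, with 348 and 295 reads (0.716 to 0.983).

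Of 12 other early factors, 5 intervals lay below no change and none above, beside 28.0% and 28.1% of all genes (33.6% and 24.5% of those with a mean count of 50 or more). Among them, Tbk1, a kinase of cargo receptors, had 193 and 146 reads (0.751-fold, 0.600 to 0.934). Sh3glb1 had 1582 and 1241 reads and Wac 948 and 743, both 0.776-fold. Of 13 fusion genes, 3 intervals lay above and 3 below no change, beside the same shares of all genes, and Tecpr1, a tether between autophagosome and lysosome, had 109 and 229 reads (2.07-fold, 1.65 to 2.64). Of 14 other selective receptors with enough reads, 3 lay above and 5 below.

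Of 18 partners of HDAC6 and the aggresome with enough reads, 6 intervals lay above and 7 below no change, beside 28.1% and 28.0% of all genes. Bag3, the co-chaperone that directs misfolded protein to aggresomes and autophagy, had 30 and 83 reads (2.68-fold, 1.78 to 4.31). Hspb1, a small heat-shock protein, had 3 and 60 reads, a read ratio of 19.8 (6.46 to 98.7). Its relative Hspb8, a partner of Bag3, had no read in either library, where 3 reads would be a CPM of 0.277 and 0.288. Vim, the intermediate filament that forms a cage around aggresomes, named here after its values were seen, had 1848 and 969 reads (0.519-fold, 0.480 to 0.561). The cofactors of Vcp were split, with Ufd1 (listed as Ufd1l) at 900 and 1117 reads and Ubxn1 at 2529 and 1990, also named after their values were seen.

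**Figure D5:**
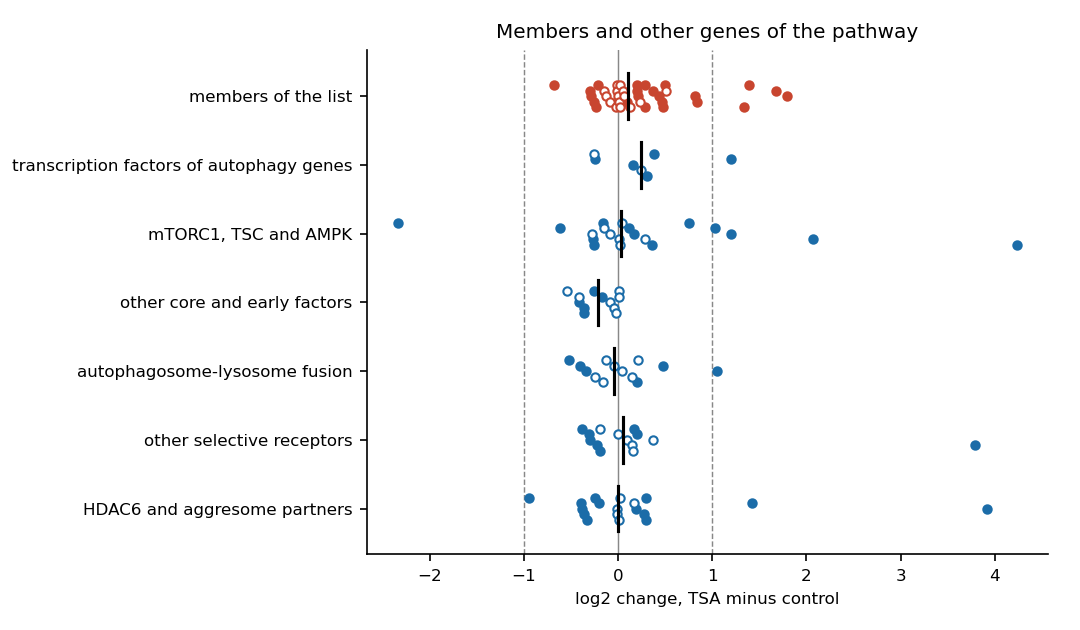
Log2 change (TSA minus control, x axis) of the genes with enough reads in the list examined here (red) and in 6 further lists of the pathway (blue), with black bars at the medians and dashed lines at 2-fold. Filled points have an interval that leaves out no change. The points of the other early factors lie at or below 0.013, and the outlying points to the right, Prkaa2 and Hspb1 among them, have few or no control reads, so their place depends on the added count.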

How the data were processed

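Total RNA from 1 control and 1 TSA-treated culture was made into QuantSeq 3′ libraries and sequenced as single-end 75-nt reads. The submitters' processing notes name Bowtie2, bedtools and mm10, and the study names ExDEGA. Versions, counting rule and normalization are not given in the sources used here. Per the values themselves, each deposited entry is the log2 of a normalized count to which 1 was added. Back-transformed, the entries fell on steps of 1.005 (control) and 0.995 (TSA) per read, and up to 300 reads, 99.7% and 99.9% lay within 0.1 of a whole read. Among the control values, 1940 rows without reads were listed slightly above 0 and were taken as 0 reads.

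Changes were computed for all rows with at least 10 reads in 1 library, and no p-value was computed, since each condition had 1 library. The floor was 3 reads. Intervals and floors cover counting error only. Reads carried no molecular identifiers, so copies of the same molecule could be counted as separate reads, and the intervals can be too narrow. Positions, overlaps and transcript ends came from GENCODE M21 (GRCm38, the assembly of mm10), and promoters from RefSeq on GRCm38.p6. Python 3.11.15, numpy 2.4.6, scipy 1.17.1 and pandas 2.3.3 were used, and the steps were tested on simulated data. The members, lists and motifs were chosen with earlier results of these data known. Named are all 39 genes, the further pathway genes past 2-fold with 10 reads in 1 library (or the 2 with the largest change among those in a list without one whose interval left out no change) and Hdac6, except for results not reported here, and others are marked as chosen after their values were seen. Alternatives covered scaling, filter, added count, threshold and interval level.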

Additional observations from a re-analysis of the deposited data

How the results depend on the processing

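No paired analysis was possible because each condition had a single library, which also left no replicate to omit. Of the 4 genes past 2-fold upwards, 2 were left when the mean normalized count had to reach 50 (Map1lc3a and Calcoco1, beside 2.96% of all genes), because fewer genes were compared, and 1 when the whole interval had to lie beyond 2-fold (beside 4.97% of all genes). Downwards, 1 gene passed at 1.5-fold (beside 8.34% of all genes) against 0 at 2-fold. Intervals below no change numbered 6 as deposited, 3 with scaling by total reads (beside 21.6% of all genes) and 3 at the 99% level (22.4%), and intervals above it went from 17 to 11 at the 99% level (22.2%). Other settings tried for these counts kept them within 1.5 times. The median log2 change of the list was 0.082 to 0.18 over all settings, beside -0.040 to 0.085 for all genes. For Optn and Atg4a, the depth could not tell no change from a change of 1.5-fold. Scaling by total reads moved all changes by 0.070, less than the smallest change among the 23 genes whose interval left out no change, so no scaling tried could turn their direction.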

Other observations

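The tables hold further genes whose symbols belong to the same families and that were on no list. Atg9b, the relative of the scramblase gene Atg9a, had 46 control and 74 TSA reads (1.58-fold, 95% counting interval 1.09 to 2.35), so both ATG9 genes were higher. Ulk3, a relative of the initiation kinases, had 58 and 67 reads (1.14-fold, 0.793 to 1.65). Ulk4 had 3 and 4 reads, and Ubqlnl had none in either library, where 3 reads would be a CPM of 0.277 and 0.288. These genes were picked by symbol after the members were known and have no replicate check.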
